A study of Homo sapiens with 12 samples.

Results

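CsA, read here as cyclosporin A, was given to HK-2 cells for 48 h, and 3 arrays of CsA-treated cells were compared with 3 arrays of control cells kept for the same 48 h. These are 6 of the 12 arrays of the series; the other 6 are the matching pair of groups at 12 h. HK-2 is an immortalized line of human proximal tubule epithelium, made with papillomavirus oncogenes, so all cultures share 1 line that keeps dividing, whereas most cells of the kidney tubule rest. Per the labels' protocols, all groups grew in medium with EGF, hydrocortisone, insulin and transferrin and were exposed when nearly confluent, and controls received the vehicle. Neither the dose of CsA nor what the vehicle was is given in the sources used here. The labels call the replicates biological and give 1 laboratory for all arrays. They do not say whether the cultures came from separate passages, so the p-values measure the spread between these cultures.

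Cyclosporin A binds cyclophilins, and the complex blocks calcineurin, the phosphatase that activates NFAT in lymphocytes. It is an immunosuppressant whose use is limited by injury to the kidney, where the proximal tubule is a main site. Proximal tubule cells reabsorb sodium, bicarbonate, glucose and filtered protein, and in injury they lose transporters and leave or re-enter the cell cycle.

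Each value is a log2 GCRMA summary of 1 probe set, a group of short probes that together read 1 transcript. A change of 1 is 2-fold, and values under 4 lie near the floor of these arrays. The comparison used the 23275 probe sets above a log2 value of 4 on at least 3 of the 6 arrays. They were fitted in limma with Benjamini-Hochberg adjustment over all of them at a threshold of 0.05, and "rose" and "fell" are kept for probe sets that passed it. Genes were read through their brightest probe set, 11055 in all, and a further fit on these alone gave a p adjusted over genes. Brightness is not compared between genes.

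The label of the cells was checked against marker genes. KRT8, KRT18 and KRT19, keratins of simple epithelia, PAX8, the renal lineage factor, and the kidney cadherins CDH6 and CDH16 were above a log2 value of 4 on all 6 arrays. ANPEP, GGT1, LRP2, CUBN, AQP1, SLC34A1 and SLC5A2, which define the differentiated proximal tubule, were under 4 on all 6. None of the 8 leukocyte markers with a probe set exceeded 4 on any array. Of the other cell types, 1 of 10 endothelial, 4 of 6 podocyte, 3 of 13 loop and distal and 4 of 12 fibroblast markers were above 4 on every array.

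CsA replicate 3 stood apart. Its spiked hybridization controls had a median log2 value of 7.38, against 9.89 to 11.42 on the other 11 arrays of the series. The ACTB 3' minus 5' difference, a sign of RNA integrity, was 1.22 there, 1.33 in control replicate 1 and 0.73 to 0.98 elsewhere. Poly-A spike controls were low on both replicate 1 arrays, at 5.04 for CsA and 4.32 for control, while the other arrays had 8.38 to 10.18. Over genes, CsA replicates 1 and 2 correlated at 0.992 with each other and at 0.978 and 0.972 with replicate 3. On the first principal component, which held 48.8% of the variance, the CsA arrays lay at 10.2 to 35.6 and the controls at -34.6 to -12.1. On the second, with 29.2%, CsA replicate 3 lay at 30.5 and the other CsA arrays at -19.5 and -25.8, with the controls between them. The median SD of a probe set was 0.20 among CsA arrays and 0.15 among controls. What set replicate 3 apart was not tested, and results that rest on it are given with and without it.

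Among the genes whose levels differed were those of chromosome duplication, and 2 of their promoters are shown because the same short letters recur in them. They are the 250 bases before the RefSeq start sites of MCM6 and MCM7, subunits of the helicase that opens DNA for replication, in build GRCh38.p14. MCM6 lies on the minus strand, with this stretch at chr2:135876444-135876693, and MCM7 on the minus strand at chr7:100101398-100101647. Capitals mark matches, on either strand, to TTTCGCGC, TTTGGCGC, TTTCCCGC or TTTGCCGC, letter forms bound by E2F factors.
MCM6: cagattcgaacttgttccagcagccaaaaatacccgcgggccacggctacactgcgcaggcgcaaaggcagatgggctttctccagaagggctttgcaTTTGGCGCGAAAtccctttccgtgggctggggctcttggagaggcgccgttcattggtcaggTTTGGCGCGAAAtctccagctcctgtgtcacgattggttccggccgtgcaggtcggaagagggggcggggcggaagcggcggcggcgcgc
MCM7: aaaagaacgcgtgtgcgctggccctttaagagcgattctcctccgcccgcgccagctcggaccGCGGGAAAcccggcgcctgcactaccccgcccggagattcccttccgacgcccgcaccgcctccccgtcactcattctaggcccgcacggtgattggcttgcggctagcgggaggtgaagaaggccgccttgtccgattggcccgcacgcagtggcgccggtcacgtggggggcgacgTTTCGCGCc
MCM6 holds 4 matches, in 2 capital stretches where matches on opposite strands overlap, beginning 152 and 90 bases before the start. MCM7 holds 2, beginning 187 and 9 bases before it. At least 1 match stood in 13 of the 45 DNA replication promoters with a sequence (28.9%). The share was 6 of 21 (28.6%) for the list of D-type cyclins and CDK inhibitors, 3 of 43 (6.98%) for mitosis, 1 of 27 (3.7%) for recombination and Fanconi repair, 4.61% of the 9135 measured genes with a sequence and 2.79% of all 27305 promoters. A match describes letters and is not evidence of binding.

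After 48 h of CsA, 10 probe sets passed the test (0.043%): 8 fell (0.0344% of those tested) and 2 rose (0.00859%). The 8 read TMT1A, E2F8, CCNE2, NASP, SQLE, CYP1B1, CDH6 and HFE, and the 2 that rose have no gene symbol. Much more lay just outside the threshold. At an unadjusted p under 0.05 stood 4543 probe sets (19.5%), 694 (2.98%) had an adjusted p under 0.1, and 194 of these (0.834%) had one under 0.07. With each array centred on its median, 6 probe sets passed as higher and 9 as lower, and after quantile normalization 4 and 8. With the replicate number added to the limma fit as a block, none passed, with 4212 at an unadjusted p under 0.05. No probe set passed when CsA replicate 1, CsA replicate 2, control replicate 1 or control replicate 2 was left out. At an unadjusted p under 0.05 these fits held 3084, 4542, 3397 and 2753 probe sets. Without CsA replicate 3, 1 passed as higher and 6 as lower, and without control replicate 3, 3 and 19.

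TMT1A, a thiol methyltransferase of the endoplasmic reticulum and lipid droplets, had log2 values of 7.78, 8.61 and 7.30 on control replicates 1 to 3 and 3.73, 3.24 and 3.17 with CsA. All CsA arrays lay under a log2 value of 4, near the floor, and far below every control. The fall was 22.9-fold (log2 change -4.51, SE 0.35, adjusted p = 0.0363), and a fold against values near the floor is uncertain. A second, dimmer TMT1A probe set had a log2 change of 0.07.

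E2F8, an atypical E2F repressor that is itself switched on as cells enter S phase, had control log2 values of 7.55, 7.39 and 7.29 and CsA values of 5.28, 5.40 and 4.86. The groups did not overlap, and replicate 3 was the lowest. E2F8 fell 4.69-fold (log2 change -2.23, SE 0.17, adjusted p = 0.0363). CCNE2, cyclin E2, which drives entry into S phase, was read by its dimmer probe set at 5.67, 5.94 and 6.05 in controls and 3.88, 3.41 and 3.29 with CsA. All CsA values lay under 4, near the floor, so the size of the fall is uncertain (log2 change -2.36, SE 0.20, adjusted p = 0.0376). The brighter one was also lower on every CsA array, with a log2 change of -1.55 and an adjusted p of 0.0845. NASP, a chaperone that supplies histones during DNA synthesis, had control values of 7.05, 7.02 and 6.83 and CsA values of 5.05, 5.28 and 5.17 on its dimmer probe set. It fell by 1.80 on the log2 scale (SE 0.12, adjusted p = 0.0363), and its brightest probe set had a log2 change of -0.84.

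CDH6, a cadherin of the developing and adult proximal tubule, stood at 10.14, 10.29 and 9.78 in controls and 8.11, 8.18 and 8.03 with CsA on 1 of its 6 probe sets. The groups did not overlap. The log2 change was -1.97 (SE 0.16, adjusted p = 0.0372). All 5 other CDH6 probe sets had lower means with CsA, by log2 changes of -0.37 to -2.50, and the one at -0.37 overlapped between groups. CYP1B1, a cytochrome P450 induced through the aryl hydrocarbon receptor, stood at 8.85, 8.91 and 8.68 in controls and 7.27, 7.17 and 7.01 with CsA (log2 change -1.66, SE 0.12, adjusted p = 0.0363). The other 2 CYP1B1 probe sets had log2 changes of -1.36 and -1.21, again with no overlap.

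SQLE and HFE each fell on 1 probe set, and their other probe sets differed by less. SQLE, squalene epoxidase of cholesterol synthesis, had values of 5.98, 5.90 and 5.96 in controls and 4.28, 4.28 and 4.26 with CsA on its dimmest probe set (log2 change -1.67, SE 0.10, adjusted p = 0.0194). The 3 brighter SQLE probe sets had log2 changes of -0.32, -0.37 and -0.61 with no overlap between groups, and none passed. HFE, a regulator of iron uptake, had control values of 6.17, 5.96 and 6.07 and CsA values of 4.78, 4.75 and 4.62 on 1 of its 11 probe sets (log2 change -1.35, SE 0.11, adjusted p = 0.0376). The brightest of the 11 had a log2 change of -0.13, and its groups overlapped.

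Both probe sets that rose were near the floor in controls and entered the test only through their CsA arrays. Among probe sets above 4 on all 6 arrays, none passed as higher in limma, with 4402 at an unadjusted p under 0.05 in either direction. The one with the smaller p had control values of 2.32, 2.32 and 2.33 and CsA values of 4.16, 4.19 and 4.38 (log2 change 1.92, SE 0.11, adjusted p = 0.0194). The other had control values of 2.98, 2.96 and 3.02 and CsA values of 5.68, 5.04 and 5.61 (log2 change 2.46, SE 0.19, adjusted p = 0.0363). Neither carries a gene name here.

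**Figure D1:**
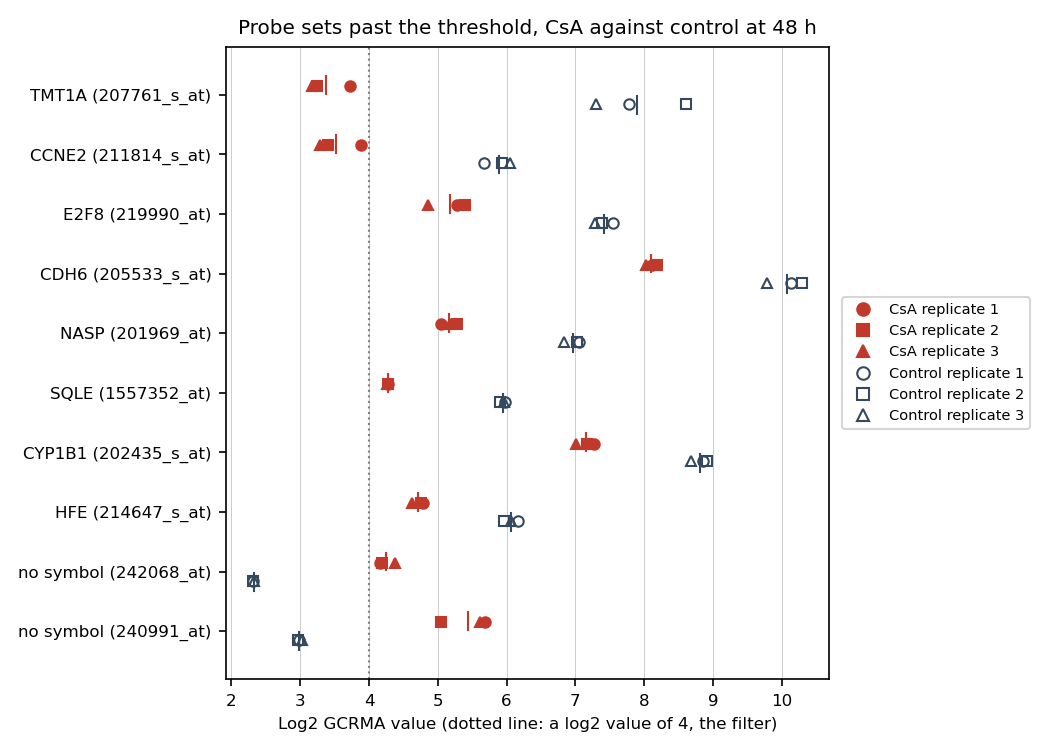
Log2 GCRMA values of the 10 probe sets past the threshold on the 6 arrays at 48 h, with filled red symbols for CsA, open symbols for control and short bars for group means. In every probe set the CsA and control arrays are apart, and for TMT1A all CsA arrays lie under a log2 value of 4.

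With 1 probe set for each gene and the p adjusted over the 11055 genes, 127 genes passed (1.15%), 33 higher (0.299%) and 94 lower (0.85%). With the replicate block these counts were 4 and 21. Without CsA replicate 3 they were 47 (0.425%) and 183 (1.66%). Without CsA replicate 1, CsA replicate 2, control replicate 1 or control replicate 2 both were 0, and without control replicate 3 they were 0 and 13. At an unadjusted p under 0.05 the 4 fits with no call held 1704, 2480, 1782 and 1519 genes. The values below that passed only this adjustment are therefore given as differences, without a claim from the test over probe sets. For reading the lists, 1557 genes (14.1%) had all CsA arrays above all controls and 1732 (15.7%) had them below, with a median log2 change of 0.00 over all genes. The counts of list members below stand against these shares, and several lie near them.

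DEFB1, the constitutive antimicrobial defensin of the tubule, had control values of 7.31, 8.96 and 7.25 and CsA values of 3.04, 4.09 and 2.89. Every CsA array was over 3 log2 units below the lowest control, with replicate 2 the highest in both groups. The log2 change was -4.5 (SE 0.55), with an adjusted p of 0.0686 over probe sets and 0.0436 over genes. GLT8D2, a predicted glycosyltransferase, went from 5.84, 6.59 and 5.87 in controls to 4.24, 3.56 and 3.65 with CsA, a log2 change of -2.28 (SE 0.28). PBLD, named for its phenazine biosynthesis-like domain, went from 8.58, 9.03 and 8.45 to 6.13, 6.86 and 6.75, a log2 change of -2.11 (SE 0.25). Both had an adjusted p of 0.0686 over probe sets and 0.0436 over genes.

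GLCCI1, a glucocorticoid-induced transcript, was at 10.53, 10.88 and 10.39 in controls and 8.67, 9.16 and 8.80 with CsA, and its 3 other probe sets differed by -1.68 to -2.58. STOX1, a winged-helix factor, had a log2 change of -1.44 (SE 0.16), PDE4A, a phosphodiesterase that degrades cyclic AMP, one of -1.26 (SE 0.14) and CCDC28B, linked to cilia, one of -1.35 (SE 0.16). For PDE4A and CCDC28B a dimmer probe set showed -0.00 and 0.01. MEIS2, a homeobox factor, stood at 11.92, 12.17 and 11.81 in controls and 10.67, 10.92 and 10.85 with CsA. RNF145, an ER ubiquitin ligase of sterol control, stood at 13.01, 12.86 and 12.71 against 11.81, 11.92 and 11.85.

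TGFA, a ligand of the EGF receptor, had the smallest p of the named genes with higher values. It stood at 8.30, 8.09 and 8.37 in controls and 10.24, 9.97 and 9.72 with CsA. Every CsA array exceeded every control by over 1 log2 unit. The log2 change was 1.72 (SE 0.17), with an adjusted p of 0.0607 over probe sets and 0.0436 over genes. TMIE, a membrane protein best known from inner ear hair cells, went from 4.86, 4.53 and 5.24 to 7.57, 6.90 and 7.71, a log2 change of 2.52 (SE 0.28), while a dimmer probe set showed 0.35. ANKRD29, an ankyrin repeat protein, went from 4.90, 4.92 and 4.37 to 7.09, 6.36 and 6.46, a log2 change of 1.91 (SE 0.25). A dimmer ANKRD29 probe set showed 0.28, with overlap between groups.

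DKK1, a secreted inhibitor of Wnt signalling, had control values of 9.84, 9.90 and 10.17 and CsA values of 11.48, 11.64 and 12.41. Replicate 3 was the highest CsA array, and the log2 change of 1.88 (SE 0.26) was 1.59 without it. SNAI2, a repressor of epithelial genes, stood at 10.76, 10.28 and 10.90 in controls and 12.04, 12.29 and 12.48 with CsA, a log2 change of 1.62 (SE 0.21). PTPRE, a receptor-type phosphatase, had a log2 change of 1.35 (SE 0.13), ACTR5, a subunit of the INO80 remodeller, 1.36 (SE 0.15) and KLF7, a Kruppel-like factor, 1.23 (SE 0.15). The 3 other KLF7 probe sets differed by -0.05 to 1.27. SP2-AS1, a noncoding transcript, differed by 1.12 (SE 0.13), HSPBAP1, a partner of a small heat shock protein, by 1.05 (SE 0.13), MERTK, a receptor for dying cells, by 0.91 (SE 0.12) and PHYKPL, a lyase, by 0.86 (SE 0.11). On its brightest probe set none of these genes overlapped between the groups, which for all but the marker DKK1 was a condition of their choice. None of them passed over probe sets.

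**Figure D2:**
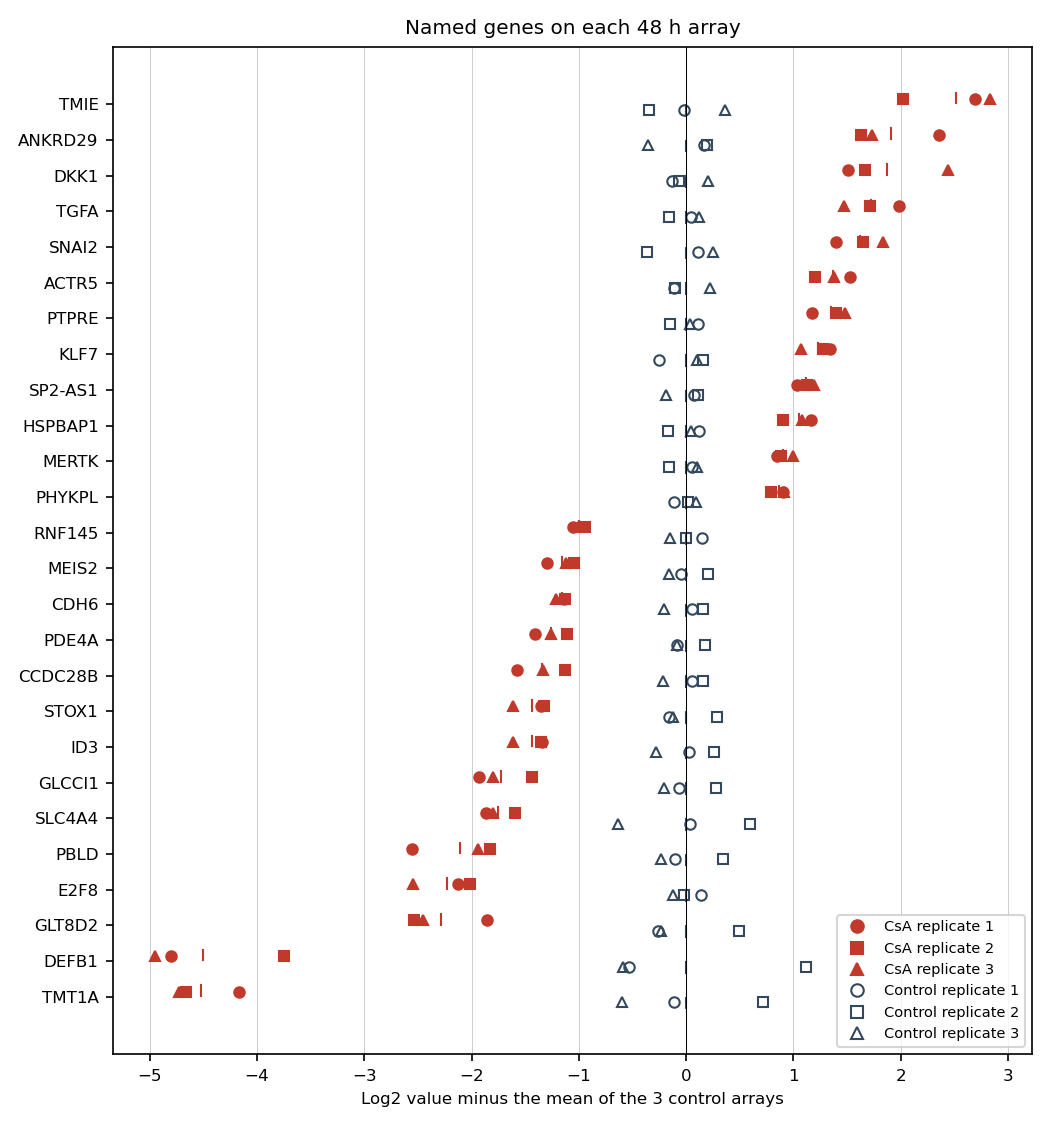
Log2 values of the named and marker genes on the 6 arrays at 48 h, each minus the mean of the 3 controls, with CsA in filled red and control in open symbols. No gene drawn has a CsA array within the range of its controls, but most were chosen for groups that do not overlap, so this is no further result. TMT1A and DEFB1 lie farthest below, with log2 changes of -4.51 and -4.5.

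Transporters and structural genes of the proximal tubule were mostly lower. Of 13 measured, 8 were lower on every CsA array than on every control and 1 was higher, against 15.7% and 14.1% of all genes. The median log2 change was -1.02, and -0.83 without CsA replicate 3. Over the 10 members above a log2 value of 4 on all 6 arrays it was -0.50. Over genes, 2 passed as lower and 1 as higher, against 0.85% and 0.299% of all genes. SLC4A4, the basolateral sodium bicarbonate cotransporter, stood at 11.03, 11.59 and 10.36 in controls and 9.13, 9.40 and 9.19 with CsA. The difference of -1.75 (SE 0.31) had an adjusted p of 0.0803 over probe sets and 0.0558 over genes, and its 4 other probe sets differed by -0.89 to -2.96. SLC2A2, the basolateral glucose transporter, went from 7.31, 7.54 and 5.91 to 3.07, 3.08 and 3.87, a log2 change of -3.58 (SE 0.47). PAX8 had the opposite sign, from 10.82, 10.65 and 10.96 to 12.07, 11.72 and 11.91, a log2 change of 1.09 (SE 0.14), and all 7 other PAX8 probe sets had positive changes, of 0.14 to 1.51.

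Among the sodium pump and other ion transporters, 6 of 16 were lower with no overlap and 3 higher, with a median of -0.16. CA2, the carbonic anhydrase that supports bicarbonate transport, stood at 11.43, 11.43 and 10.92 in controls and 9.87, 9.38 and 9.78 with CsA, and it was the 1 member that passed over genes (log2 change -1.58, SE 0.20, adjusted p = 0.0443). KCNJ16, a basolateral potassium channel, differed by -1.90 (SE 0.39) and AQP3, a water and glycerol channel, by -1.38 (SE 0.23). Of 12 tight junction genes, 3 were lower and 5 higher. CLDN2, a claudin of the leaky proximal tubule, stood at 8.71, 8.91 and 7.08 in controls and 6.00, 5.48 and 3.87 with CsA, with replicate 3 lowest in both groups (log2 change -3.12, SE 0.70). OCLN, occludin, had a positive difference of 0.64 (SE 0.13). TJP3, a junction scaffold, had a log2 change of -1.0 (SE 0.15) and passed over genes.

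Of the 6 measured keratins, 3 were higher with no overlap, with a median of 0.39, which was 0.16 without CsA replicate 3. On CsA replicates 1 and 2, 3 lay above all controls and 2 below. On replicate 3 all 6 lay above, against 42.9% of all genes. KRT7 stood at 11.38, 10.58 and 11.40 in controls and 12.05, 12.11 and 12.60 with CsA. KRT19 was at 10.30, 10.11 and 11.87 with CsA against 9.98, 10.09 and 9.85 in controls, so that its mean rested on replicate 3. Of 15 mesenchymal transition genes, 5 were higher with no overlap and none lower, with a median of 0.06. RUNX2 had a log2 change of 2.68 but an SE of 1.00, its controls ranging from 3.88 to 7.63. TAGLN, an actin-binding protein of contractile cells, differed by 0.65 (SE 0.13).

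Genes of tubular injury and repair did not share a direction: 2 of 16 were higher and 5 lower, with a median of -0.16, which was 0.02 without CsA replicate 3. HAVCR1, which encodes the injury marker KIM-1, stood at 9.48, 8.79 and 9.62 with CsA and 9.37, 9.55 and 9.46 in controls, so that the groups overlapped (log2 change -0.17, SE 0.23). VCAM1, an adhesion molecule, went from 8.19, 8.61 and 6.24 to 4.81, 5.32 and 5.32 (log2 change -2.53, SE 0.61). CD24 differed by -0.86 (SE 0.20), and all 5 of its other probe sets had negative changes.

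Of 32 genes of the extracellular matrix and its enzymes, 10 were lower and 4 higher with no overlap, with a median of -0.26. CILP, a cartilage matrix protein, went from 6.14, 7.66 and 6.32 to 3.51, 3.52 and 4.34 and passed over genes (log2 change -2.92, SE 0.46, adjusted p = 0.0458). SERPINF1, the secreted factor PEDF, went from 9.31, 11.10 and 10.18 to 6.53, 7.83 and 7.28 (log2 change -2.98, SE 0.52). LUM, lumican, differed by -1.68 (SE 0.38) and COL1A1 by -0.95 (SE 0.24). LUM and COL1A1 are also fibroblast markers. The summed log2 level of the 12 fibroblast and mesangial markers with a probe set was 50.8 to 53.3 with CsA against 53.6 to 56.5 in controls. Of these, 7 were above 4 on no array, so the sum rests on few genes. The others, DCN, PDGFRB and ACTA2, overlapped between groups, with log2 changes of -0.86 for DCN and 0.21 for PDGFRB. Without CsA replicate 3 these were -1.66 and -0.07. DCN stood at 3.05, 2.69 and 5.29 with CsA against 4.96, 4.42 and 4.22, so it overlapped only through replicate 3, and replicates 1 and 2 lay near the floor. ACTA2 stood at 8.16, 8.33 and 6.1 with CsA against 7.66, 8.06 and 7.28. In these bulk cultures fewer cells of a kind and less RNA in each cell cannot be told apart.

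In the EGF receptor list, 9 of 23 genes were higher with no overlap and 1 lower, against 14.1% and 15.7% of all genes. The list's median was 0.26. EGFR itself stood at 11.15, 11 and 11.16 in controls and 11.86, 12.00 and 12.34 with CsA, a log2 change of 0.97 (SE 0.15, adjusted p = 0.0458 over genes), and its 4 other probe sets differed by 0.34 to 1.64. The feedback phosphatases DUSP5 and DUSP10 both differed by 1.57, with SEs of 0.33 and 0.34.

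In the Wnt list 3 of 32 genes were higher and 6 lower, with a median of -0.14. DKK1 was among the higher ones. LGR4, a receptor for R-spondins that strengthens Wnt signalling, stood at 11.06, 11.23 and 10.80 in controls and 9.56, 9.98 and 9.64 with CsA (log2 change -1.30, SE 0.17, adjusted p = 0.0443 over genes), although a second probe set showed 0.01. WLS, which carries Wnt ligands to the surface, differed by -0.69 (SE 0.14). In the TGF-beta and BMP list 4 of 26 were higher and 4 lower, near the 14.1% and 15.7% of all genes. ID3, a target of BMP signals, stood at 9.09, 9.32 and 8.78 in controls and 7.72, 7.71 and 7.45 with CsA (log2 change -1.44, SE 0.17). INHBA, the activin subunit, differed by 1.26 (SE 0.29), BMP2 by 0.56 (SE 0.11) and the receptor BMPR2 by -0.73 (SE 0.14). The 3 other BMPR2 probe sets did not share a direction, at -0.76 to 0.43.

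In adenosine and cyclic nucleotide signalling 5 of 27 genes were higher and 10 lower, with a median of -0.22. ADORA2B, a receptor for adenosine that raises cyclic AMP, stood at 5.48, 4.74 and 6.22 in controls and 8.16, 7.35 and 8.35 with CsA (log2 change 2.47, SE 0.43). The phosphodiesterases PDE4A and PDE8A were lower, the latter by a log2 change of -0.67 (SE 0.12). UPP1, which breaks down uridine, differed by 1.26 (SE 0.23).

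Of 13 Kruppel-like factors, 6 were higher with no overlap and none lower. KLF4 stood at 10.19, 9.40 and 10.14 in controls and 11.38, 11.47 and 11.71 with CsA (log2 change 1.61, SE 0.24, adjusted p = 0.0443 over genes). The list's median of 0.33 depended on single arrays: against the control mean it was -0.12 on CsA replicate 1, 0.31 on replicate 2 and 0.97 on replicate 3. Without CsA replicate 3 it was 0.07. The immediate early genes also varied by array, at -0.07, 0.64 and -0.40. Their controls varied alike, with list means of 10.63, 11.55 and 10.18 on control replicates 1 to 3. With CsA the list means were 10.85, 11.43 and 10.18. FOSL1, an AP-1 subunit, was nonetheless higher on every CsA array, at 8.29, 8.64 and 8.13 against 7.20, 7.25 and 7.14.

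Immune genes were mixed. Of 8 defensin and complement genes, 6 were lower and 1 higher, with a median of -0.60. CFB, complement factor B, stood at 10.67, 10.80 and 10.64 in controls and 9.98, 10.01 and 9.79 with CsA, although a second CFB probe set showed -0.03. C1S, a complement protease, differed by -1.76 (SE 0.31). CD55, which protects cells from complement, was the 1 higher member, at 10.96, 11.01 and 11.32 against 10.19, 10.02 and 10.30. Interferon-stimulated genes split, 5 higher and 8 lower of 30. On CsA replicates 1 and 2, 14 lay above all controls and 8 below, against 18.7% and 26.9% of all genes. The list's median against the control mean was 0.21 and 0.27 on these arrays and -0.32 on replicate 3. IFITM1 differed by -1.50 (SE 0.25) and IFIT1 by -1.25 (SE 0.22), whereas MX1 differed by 0.77 (SE 0.14). Of 16 NF-kB targets and cytokines, 2 were higher, IL11 and LIF, and none lower, against 14.1% and 15.7% of all genes.

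Genes of DNA replication had mostly lower values. Of 51 measured, 23 were lower on every CsA array and none was higher on every one, against 15.7% and 14.1% of all genes, and the median log2 change was -0.60. MCM4, MCM6 and MCM7 passed over genes. MCM6 stood at 11.06, 10.69 and 10.62 in controls and 9.82, 9.78 and 9.84 with CsA (log2 change -0.98, SE 0.14, adjusted p = 0.0443). MCM7 stood at 11.11, 11.05 and 10.92 against 10.19, 10.27 and 10.40 (log2 change -0.74, SE 0.11, adjusted p = 0.0445). The whole helicase ring, looked at after these values were seen, was lower on all 3 CsA arrays: MCM2 differed by -0.77, MCM3 by -0.94, MCM4 by -0.98 and MCM5 by -1.0. PCNA, the sliding clamp, was at 12.52, 12.38 and 11.85 with CsA against 13.17, 12.85 and 12.76 in controls.

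Mitosis genes differed between the CsA arrays. On CsA replicates 1 and 2, 47 of 50 lay below all controls, against 26.9% of all genes. On replicate 3, 1 lay below all controls and 42 lay above them, against 31.3% and 42.9% of all genes. The list's median against the control mean was -1.18 and -1.66 on replicates 1 and 2 and 0.79 on replicate 3. PLK1, the mitotic kinase, stood at 6.06 and 5.61 on CsA replicates 1 and 2 and at 8.62 on replicate 3, with controls at 7.40, 7.36 and 7.27. CDK1 stood at 9.04 and 8.20 and then at 10.93, with controls at 10.73, 10.03 and 9.99. Both were picked after their values were seen. KIF11, a spindle motor, was the member with the smallest p and the 1 below all controls on every CsA array, at 6.75, 6.73 and 8.44 against 9.20, 8.80 and 8.76. With all arrays no mitosis gene passed over genes; without CsA replicate 3, 20 of 50 passed as lower, against 1.66% of all genes, and the median was -1.36.

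The replication list was less divided. Its median against the control mean was -0.74 and -0.69 on CsA replicates 1 and 2 and -0.17 on replicate 3, and of the 37 genes below all controls on the first pair of arrays, 23 were also below on replicate 3. For all genes that share was 58.1%, and 75.3% of genes above all controls on the first pair were also above on replicate 3. On replicate 3, 15 of the 51 lay above all controls and 24 below, against 42.9% and 31.3% of all genes. Without CsA replicate 3, 10 of the 51 passed as lower, against 1.66% of all genes. In recombination and Fanconi repair 11 of 30 were lower with no overlap and 1 higher, with medians of -0.41, -0.46 and 0.03 on the 3 CsA arrays. BRIP1, a helicase partner of BRCA1, stood at 7.38, 6.80 and 6.67 in controls and 3.16, 4.82 and 5.53 with CsA.

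**Figure D3:**
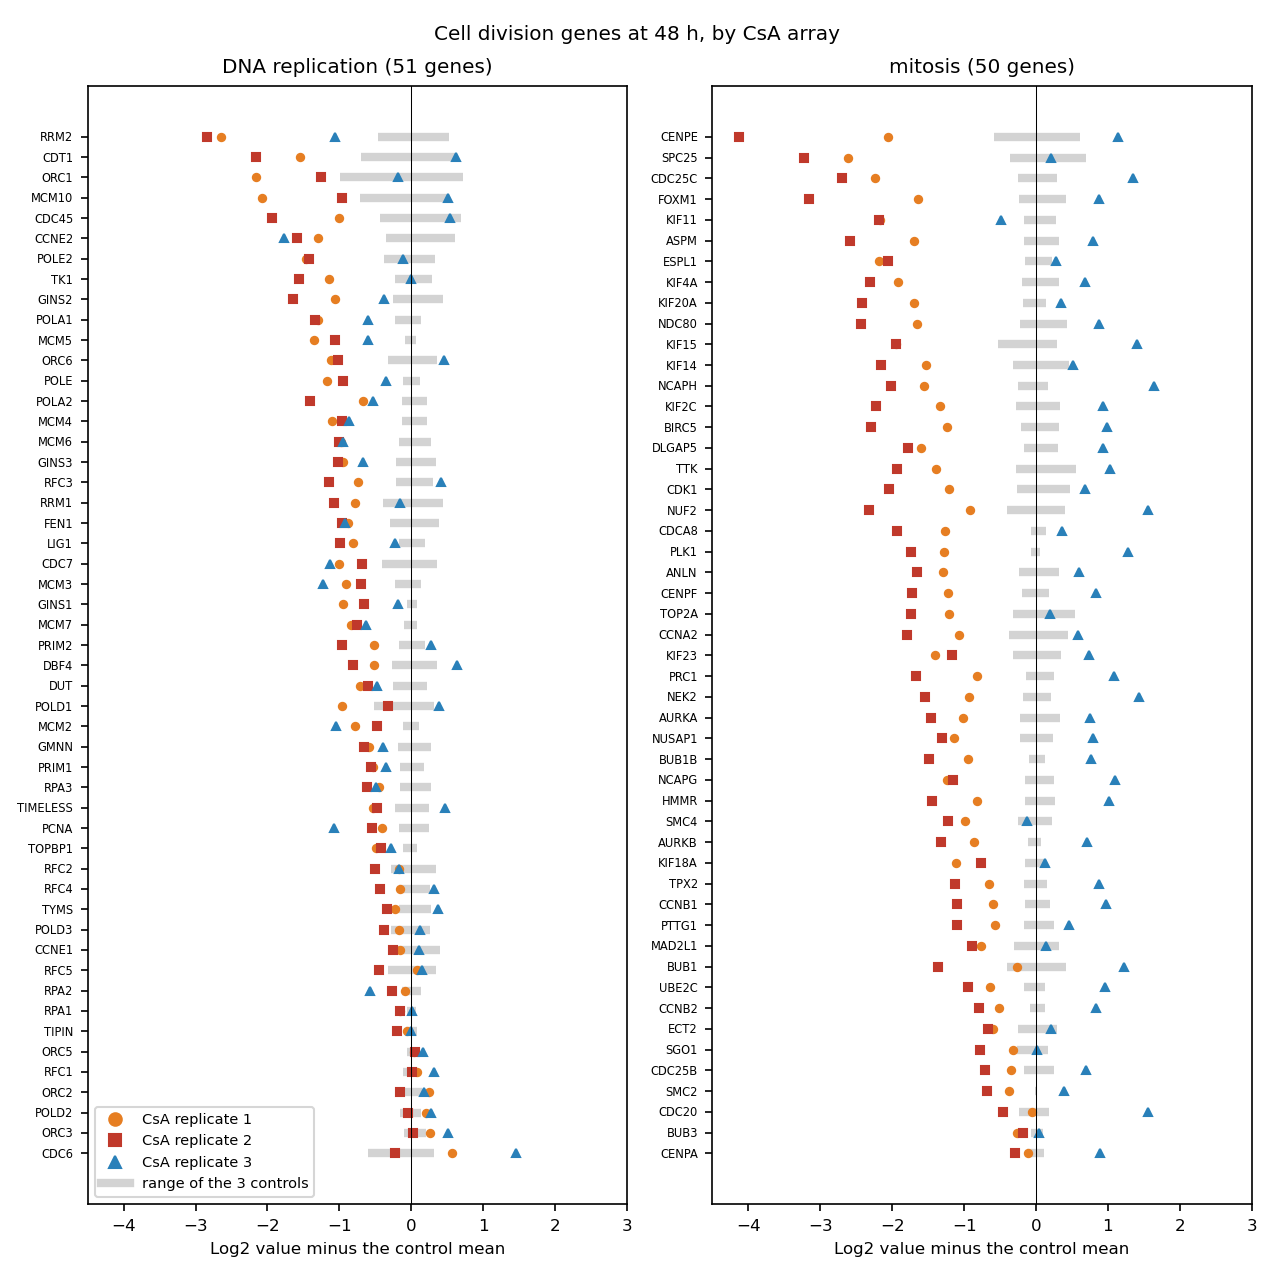
Log2 value of each measured DNA replication and mitosis gene on the 3 CsA arrays minus the control mean, with the range of the 3 controls in grey and genes ordered by replicates 1 and 2. CsA replicates 1 and 2 both lie left of the control range for 37 of 51 replication genes and 47 of 50 mitosis genes. CsA replicate 3 lies right of it for 42 of 50 mitosis genes.

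Replication-dependent histone genes had a median of -0.96 over 11 measured, with 4 lower and none higher without overlap. H2BC12 was among the lower ones, at 12.05, 12.38 and 11.77 with CsA. Their probe sets read polyadenylated or cross-priming RNA from near-identical copies, so single members are uncertain. In the list of D-type cyclins, CDK inhibitors and their E2F partners, which holds E2F8, 2 of 27 were higher and 6 lower. CDKN1B, the inhibitor p27, was lower at 11.12, 11.29 and 11.16 against 11.87, 11.92 and 11.78 (log2 change -0.66, SE 0.11, adjusted p = 0.0466 over genes). CDKN1C, the inhibitor p57, was higher by 0.86 (SE 0.18). CDKN1A, the inhibitor p21, stood at 14.31 and 14.41 on CsA replicates 1 and 2, 13.39 on replicate 3 and 13.48, 13.80 and 13.64 in controls, so that the groups overlapped.

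Of 27 p53 targets, 11 were higher and 2 lower with no overlap, with a median of 0.29. The medians by CsA array were 0.33, 0.40 and 0.05. GADD45A, a stress sensor, stood at 13.24, 13.26 and 12.76 against 12.27, 12.27 and 12.42 in controls (log2 change 0.77, SE 0.17), and XPC, of nucleotide excision repair, differed by 0.55 (SE 0.12). None passed over genes. In the BCL2 family 2 of 20 were higher and 3 lower, against 14.1% and 15.7% of all genes, with HRK at 1.23 (SE 0.30) and BMF at -0.74 (SE 0.20).

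ER stress genes differed little between CsA and control at 48 h. Of 46 chaperones and degradation factors, 8 were higher and 2 lower, with a median of 0.08, and of 18 stress sensors 3 and 2. HSPA5, the main ER chaperone, stood at 16.23, 16.24 and 16.08 with CsA, with a control mean of 16.1 (log2 change 0.08, SE 0.11). A second, dimmer HSPA5 probe set had a log2 change of 0.31. Whether values as high as those of the brightest probe set can still show a rise was not tested. DDIT3, which encodes CHOP, stood at 14.55, 13.65 and 14.25 against 13.80, 13.40 and 14.41 (log2 change 0.28, SE 0.33). On their brightest probe sets both genes overlapped between groups. Control means were themselves higher at 48 h than at 12 h: 13.87 against 9.03 for DDIT3 and 16.1 against 14.41 for HSPA5. The CsA values at 48 h are compared with these higher controls. In the ATF4 and CHOP response 12 of 40 were higher and 4 lower, with a median of 0.14. ATF3 passed over genes, at 13.50, 13.57 and 13.49 against 12.82, 12.85 and 12.74 (log2 change 0.71, SE 0.10). Of 17 tRNA synthetases 8 were higher and none lower, LARS1 by 0.65 (SE 0.14).

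Both lipid synthesis lists had negative medians on all 3 CsA arrays. In sterol synthesis and uptake 13 of 27 were lower and 1 higher with no overlap, with a median of -0.20. ACAT2, which makes the first intermediate of the pathway, stood at 11.87, 11.76 and 11.77 in controls and 11.16, 11.04 and 11.07 with CsA and passed over genes (log2 change -0.71, SE 0.10, adjusted p = 0.0443). HMGCS1, the next enzyme, differed by -0.57 (SE 0.11), IDI1, an isomerase of isoprenoid units, by -0.49 (SE 0.10) and TM7SF2, a sterol reductase, by -1.16 (SE 0.22). The 3 other IDI1 probe sets differed by -0.48 to 0.06. In fatty acid synthesis 8 of 21 were lower and none higher, with a median of -0.22. ELOVL6, an elongase, stood at 8.82, 8.88 and 8.60 in controls and 7.68, 7.80 and 7.86 with CsA (log2 change -0.99, SE 0.12, adjusted p = 0.0436 over genes). SCD5, a desaturase, differed by -1.46 (SE 0.23).

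Respiratory chain and ATP synthase genes differed by little: 17 of 49 were lower and 3 higher, with a median of -0.14 and no member under -0.52. Of 32 antioxidant, glutathione and aldo-keto reductase genes, 11 were lower and 2 higher. AKR1C2, a steroid and carbonyl reductase, stood at 5.64, 5.63 and 5.56 in controls and 4.42, 4.46 and 4.16 with CsA (log2 change -1.26, SE 0.12, adjusted p = 0.0607 over probe sets). AKR1C3 differed by -1.70 (SE 0.25), but AKR1C probe sets can share sequence, so the members are not independent. CAT, catalase, differed by -1.06 (SE 0.14), and HMOX1, the haem oxygenase induced by oxidants, overlapped, at 9.37, 9.27 and 8.55 against 9.15, 9.21 and 9.33. Among 6 genes of the aryl hydrocarbon receptor list, TIPARP, a feedback enzyme of the receptor, stood at 11.89, 11.88 and 11.68 in controls and 10.73, 10.85 and 10.97 with CsA, a log2 change of -0.97 (SE 0.12). CYP1B1 was the other lower member.

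Cyclophilins, which bind CsA, were listed with the FK506-binding proteins, which do not. Of the 23 measured, 4 were higher and 6 lower, with a median of 0.01. FKBP10, an FK506-binding protein of the ER, had the smallest p, with a log2 change of -1.29 (SE 0.33). PPIA, the main cytosolic cyclophilin, had a log2 change of -0.14 (SE 0.10) and PPIB, the ER form, one of 0.33 (SE 0.16). In the calcineurin and NFAT list 4 of 15 were higher and 2 lower. PPP3CA, the catalytic subunit, stood at 11.07, 11.37 and 11.76 with CsA against 11.62, 11.73 and 11.61 and overlapped. RCAN1, a target and inhibitor of calcineurin, was lower, at 9.58, 9.85 and 9.57 against 9.97, 10.34 and 10.11 (log2 change -0.47, SE 0.15, adjusted p = 0.171). PLCG2, a phospholipase upstream of calcium release, was the member with the smallest p, at 8.15, 7.81 and 8.69 against 6.59, 6.50 and 6.58 (log2 change 1.66, SE 0.23, adjusted p = 0.0443 over genes).

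Drug pumps mostly overlapped between the groups. ABCB1, which exports CsA, stood at 7.47, 6.80 and 6.59 with CsA and 7.92, 7.90 and 7.24 in controls, and the groups overlapped (log2 change -0.73, SE 0.29). SLCO4A1, an organic anion carrier, was the 1 of 11 genes with no overlap, at 11.91, 11.83 and 11.65 against 10.61, 10.06 and 10.71 (log2 change 1.34, SE 0.20, adjusted p = 0.0443 over genes).

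**Figure D4:**
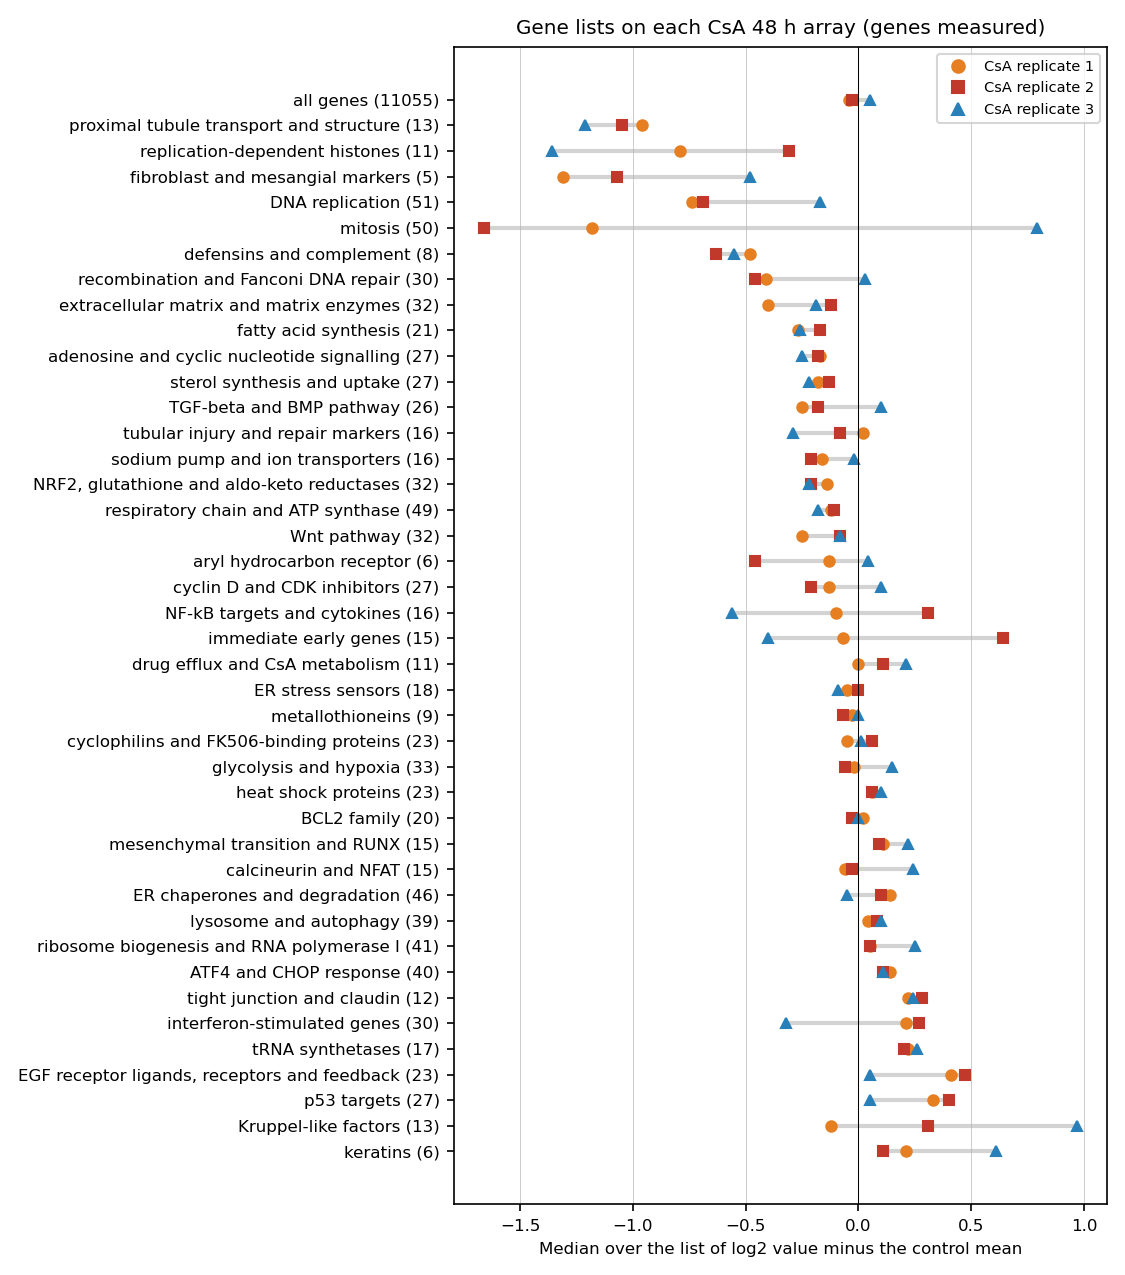
Median over each gene list of the log2 value minus the control mean, for CsA replicates 1, 2 and 3 separately, with the number of genes measured in brackets. The arrays lie close together for sterol synthesis, at -0.18, -0.13 and -0.22, and far apart for mitosis, at -1.18, -1.66 and 0.79.

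TMT1A and DEFB1, which had the largest differences of the named genes at 48 h, differed by little at 12 h. The groups at the 2 times share no arrays. The SEs at 12 h, however, come from the fit of all 12 arrays, so the wider spread of the 48 h arrays enters them. TMT1A had a log2 change of -0.22 (SE 0.36) at 12 h and DEFB1 one of -0.27 (SE 0.50), beside -4.51 and -4.5 at 48 h. KLF4, in contrast, had log2 changes of 1.23 (SE 0.30) at 12 h and 1.61 at 48 h. The difference between the effects was tested with all 12 arrays and passed for 83 probe sets (0.357%). Of these, 65 probe sets (0.279%) had a lower and 18 (0.0773%) a higher effect at 48 h. That fit shares 1 spread over groups whose median SDs were 0.10 and 0.11 at 12 h. Of the 196 named genes, 24 passed, 20 with the lower and 4 with the higher effect at 48 h. Most named genes were chosen by their 48 h values, which enter this difference, so the count is a description and no independent support. For TMT1A the difference was -4.30 (adjusted p = 0.0172), for DEFB1 -4.23 (adjusted p = 0.0424) and for TMIE 2.44 (adjusted p = 0.0172). For KLF4 the adjusted p was 0.713 and for DKK1, at 0.74 (SE 0.26) and 1.88, it was 0.184. For SLC4A4, at -0.06 and -1.75, it was 0.0638, and 0.0388 with array weights by time.

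For 3 genes of lipid synthesis, chosen after their values were seen, the log2 changes at the 2 times had opposite signs. ACAT2 had log2 changes of 0.18 at 12 h and -0.71 at 48 h (adjusted p of the difference 0.0348), HMGCS1 of 0.26 and -0.57 (0.0352) and ELOVL6 of 0.25 and -0.99 (0.0317). The median of the sterol list was 0.18 at 12 h and -0.20 at 48 h. The ER chaperone list had medians of 0.16 and 0.08, and HSPA5 changes of 0.78 and 0.08, a difference that did not pass (adjusted p = 0.147). The HSPA5 control mean was 14.41 at 12 h and 16.1 at 48 h.

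Control levels of cell cycle genes differed between the times. The dimmer CCNE2 probe set had a control mean of 9.79 at 12 h and 5.89 at 48 h, and E2F8 one of 8.93 and 7.41. With CsA their means at 48 h were lower still, 3.52 and 5.18. E2F8 had a log2 change of -0.43 (SE 0.17) at 12 h, and its difference between times was -1.80 (adjusted p = 0.0211). The medians of the replication list were -0.08 and -0.60 at the 2 times, and those of the mitosis list -0.22 and -0.60. The mitosis median at 48 h joins CsA arrays of opposite direction, at -1.18, -1.66 and 0.79. Without CsA replicate 3 the 48 h medians were -0.74 for replication and -1.36 for mitosis.

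**Figure D5:**
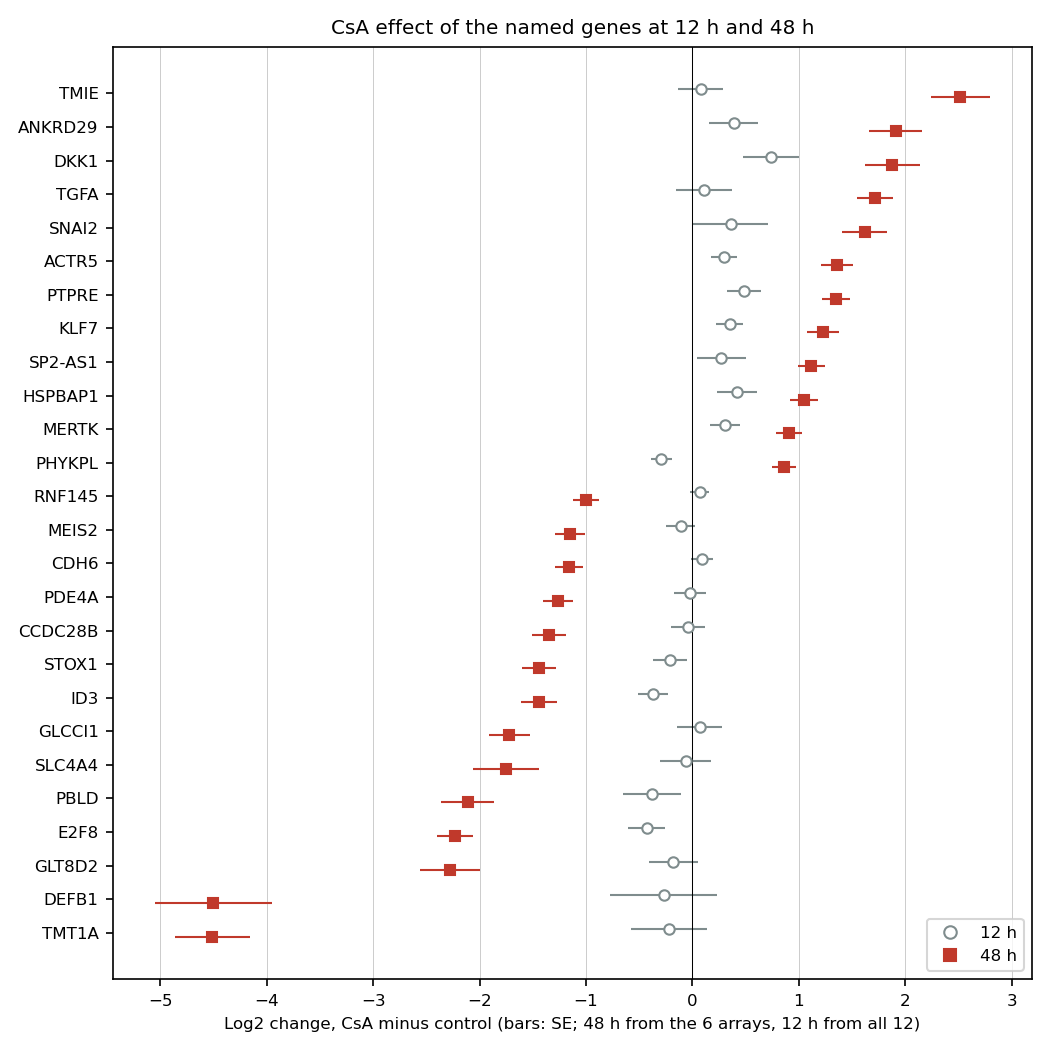
Log2 change with CsA at 12 h (open circles) and at 48 h (red squares) for the named and marker genes, with bars for the SE. At 12 h the points lie between -0.43 for E2F8 and 0.74 for DKK1, and at 48 h between -4.51 for TMT1A and 2.52 for TMIE.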

How the data were processed

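RNA of HK-2 cells was labelled with biotin and hybridized to Affymetrix arrays, 3 for each of 4 groups. The authors deposited log2 values, 1 for each probe set, computed with GCRMA per the submitters' processing notes, with no version or settings given in the sources used here; that method usually includes background correction by probe sequence and quantile normalization, which can compress dim values and hide global shifts. Of 54675 probe sets, 62 are array controls, and the platform annotation gave 1 symbol for 41097, several for 1801 and none for 11777; 41043 of the first were matched to RefSeq by gene identifier.

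Probe sets above a log2 value of 4 on at least 3 of the 6 arrays at 48 h (23275) were fitted on those arrays alone in limma 3.58.1 (R 4.3.3; lmFit, eBayes without trend), two-sided, with Benjamini-Hochberg adjustment and a threshold of 0.05. A gene was read through the probe set with the highest mean. The effect at 12 h and the difference between 48 h and 12 h used all 12 arrays. The fit was also run on simulated data with independent noise on each array. No simulated array was set apart as CsA replicate 3 is, so that run does not bear on it. The number of arrays, 3 a group, limits the precision.

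The comparison, its members and all gene lists were chosen with earlier results of these data known. Lists carry no test: counts and medians stand beside those of all genes. Named genes are up to 12 in each direction with the largest change past the threshold, filled up by smallest p at an unadjusted p under 0.01, with arrays not overlapping and the brighter group averaging 6 or more on the log2 scale. Added are 5 markers, up to 4 members of each list by smallest p, and PPIA, PPIB, PPP3CA, RCAN1, HAVCR1, DDIT3, HSPA5, HMOX1 and CDKN1A. The text names part of these list members, and 1 of the 24 leading genes is not reported here. Alternatives were other filters, weights, priors, normalizations, blocks, units and arrays left out. Promoter sequences are from RefSeq, build GRCh38.p14.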

Additional observations from a re-analysis of the deposited data

Results flagged for a closer look

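For 24 of the 196 named genes the effect of CsA at 48 h differed from that at 12 h (limma on all 12 arrays, Benjamini-Hochberg adjusted p under 0.05). Most of these genes were named for their 48 h values, which enter the difference, so their number supports nothing further. Values are log2 differences, the 48 h effect minus the 12 h effect. The effect was higher at 48 h for TMIE (2.44), PHYKPL (1.16), ACTR5 (1.06) and PAX8 (0.99). It was lower by the most for TMT1A (-4.30), DEFB1 (-4.23), ELSPBP1 (-3.53), a protein named for its binding to sperm, and GLT8D2 (-2.10).

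Among genes of the cell cycle the differences were -1.80 for E2F8, -0.97 for MCM4 and -0.98 for MCM6. In lipid synthesis they were -0.89 for ACAT2, -0.82 for HMGCS1, -0.72 for IDI1 and -1.24 for ELOVL6, and RNF145, a ligase of sterol control, had -1.07. The remaining genes were GLCCI1 (-1.79), CCDC28B (-1.30), CDH6 (-1.25), PDE4A (-1.24), LGR4 (-1.22), AKR1C2 (-1.12), GLA (-1.04), the lysosomal galactosidase, and TIPARP (-0.94). With array weights by time PDE4A, GLCCI1, CCDC28B, IDI1, AKR1C2 and ELSPBP1 no longer passed, with adjusted p-values of 0.0719, 0.0535, 0.0540, 0.0503, 0.0651 and 0.0503. With the replicate block within each time ACTR5, GLT8D2 and MCM4 did not, at 0.0530, 0.0566 and 0.0630. Under these settings 8 and 21 further named genes passed, SLC4A4 among them in both (adjusted p = 0.0388 and 0.0494). The 12 h arrays spread less than the 48 h arrays, and the part of this in the differences was not tested.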

How the results depend on the processing

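All 10 probe sets past the threshold kept their direction in every setting that gave them a value. With array weights 10 of 10 still passed, 9 after centring and 3 without CsA replicate 3. With the replicate block, or without CsA replicate 1, 0 passed. The weights were 3.425, 1.085 and 0.2277 on CsA replicates 1 to 3 and 0.8531 to 1.274 on controls. CsA replicate 1 thus counted most in the weighted fit. Counts are of probe sets higher and lower with CsA by limma, 2 and 8 as reported. With no filter on dim values they were 1 and 1, above a log2 value of 6 on at least 3 arrays 0 and 5, and above 4 on all 6 arrays 0 and 5, with 5197, 4110 and 4402 probe sets at an unadjusted p under 0.05. All 12 arrays in 1 fit gave 1088 and 1889, array weights 609 and 1572, a trend with a robust prior 5 and 12, a second quantile normalization 4 and 8, and centring 6 and 9. Over genes, the mean of all probe sets gave 24 and 64 and the brightest probe set 33 and 94. In the fit of all 12 arrays the tighter 12 h groups enter the shared spread.

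Leaving out 1 array gave 0 to 3 probe sets higher and 0 to 19 lower, and over genes 0 to 47 higher and 0 to 183 lower. Without both replicate 1 arrays no probe set and no gene passed, with 1965 and 998 at an unadjusted p under 0.05. Without both replicate 3 arrays 2 probe sets passed as higher and 4 as lower. Leaving out this pair, and the counts over genes by array and setting, were chosen after seeing the data. Over genes, array weights gave 683 and 1370, the trend 81 and 235, quantile normalization 56 and 132, centring 59 and 144, and all 12 arrays 708 and 1095.

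Over all probe sets, replicate numbers did not consistently pair the 48 h arrays. Deviations from the group means correlated at -0.119, 0.312 and -0.158 for arrays of the same number. For arrays of different numbers they correlated at -0.363 to 0.325. These correlations cannot exclude a pairing for part of the genes. List means of the immediate early genes followed the replicate number in both groups, and poly-A controls were low on both replicate 1 arrays. The replicate block gave 0 and 0 probe sets, with 4212 at an unadjusted p under 0.05, and 4 and 21 genes. For the difference between times, 83 probe sets passed, 123 with array weights by time and 281 with the replicate block within each time.

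Medians of lists moved by more than the spread between arrays for the Kruppel-like factors (-0.02 with array weights), the immediate early genes, the keratins and the proximal tubule list (-0.50 over its 10 members above 4 on all 6 arrays). The cause was not tested for the first 3. Values under 4 on at least 1 array limit folds, among others, for TMT1A, DEFB1, SLC2A2, GLT8D2, CILP, CLDN2, BRIP1, ELSPBP1, CCNE2 and both probe sets that rose.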

Other observations

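Some gene groups had small medians; over all genes 14.1% were higher and 15.7% lower with no overlap. Of 23 heat shock proteins 8 were higher on every CsA array and none lower, with HSPH1 at 11.68, 11.54 and 11.78 against 11.26, 11.08 and 11.19 in controls (log2 change 0.49, SE 0.12) and HSPA9, of mitochondria, at 0.35 (SE 0.11). Of 41 ribosome biogenesis genes 11 were higher and 2 lower, with a median of 0.11, and UTP15 differed by 0.57 (SE 0.13). Of 39 lysosome and autophagy genes 9 were higher and 7 lower; GLA stood at 10.37, 10.41 and 9.98 in controls and 9.07, 9.17 and 8.83 with CsA.

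Of 33 glycolysis and hypoxia genes 6 were higher and 3 lower, with a median of 0.02. VEGFA, the endothelial growth factor, stood at 13.57, 13.65 and 13.07 with CsA against 12.72, 12.52 and 12.60, and EPAS1, the factor HIF-2 alpha, differed by 0.68 (SE 0.15). None of the 9 metallothionein and zinc genes measured separated the groups. ELSPBP1 stood at 7.27, 7.62 and 6.56 in controls and 4.14, 4.42 and 3.13 with CsA, -3.26 on the log2 scale (SE 0.41), with a limma adjusted p of 0.0686 over probe sets.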
